A study of Rattus norvegicus with 6 samples.

Results

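Epithelial surfaces of the airway release antimicrobial proteins, and 10 genes of this kind were followed in the pulmonary vein (PV) of neonatal rats with and without banding of the vein. The names were Defb1, Defb3, Defb4, Reg3g, Bpifa1, Bpifb1, Lcn2, Slpi, Pigr and Ltf1, out of the 17833 genes with a value. They had been selected on the measured values of the same comparison that is described here, the FPKM of the banded libraries beside those of the sham libraries. The difference of these genes between the groups is therefore given as a description, with no test. Of the 10 names, 5 led to a row by their symbol (Defb4, Reg3g, Pigr, Slpi and Lcn2), and the other 5 were not analysed here. RefSeq lists Defb3 as an older symbol of Defb4 (NCBI Gene 64389), the first gene described here. A row named Ltf, the symbol of lactotransferrin, is not among the names. It had 0.0731 FPKM in BPVB replicate 3 and 0 in each other library.

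Bulk RNA-seq had been performed on the PVs of wild type Sprague-Dawley (SD) rats, 3 with bilateral pulmonary vein banding (BPVB) and 3 with a sham operation, with 1 library per rat. All rats were operated on at postnatal day 1, under anesthesia by cooling, and the vein was taken at postnatal day 21. The sham rats had the chest opened without constriction of a vein, so that thoracotomy, anesthesia and age were shared by both groups. The tissue was the PV that drains the upper lobe on the right side, taken whole, so that vein wall, the sleeve of heart muscle around it and any lung tissue attached to it were read together. In such bulk RNA, a change in the number of cells of a type and a change in RNA per cell cannot be told apart. Expression is given as FPKM, the fragments of a gene scaled by its length and by the fragments of the library. The libraries held between 23439506 and 29725808 fragments.

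Mucosal defence works in layers. Beta-defensins are small cationic peptides with a fixed pattern of disulfide bonds that disrupt microbial membranes, and REG3 proteins are C-type lectins that bind the cell wall of bacteria. The polymeric immunoglobulin receptor carries dimeric IgA and pentameric IgM across the epithelium into the secretions. Secretory leukocyte protease inhibitor protects the surface from neutrophil elastase and cathepsin G, and lipocalin-2 withholds iron by binding bacterial siderophores. BPI-fold proteins and lactotransferrin, which belong to the same defence, are represented only by the names without a value here. Several of these genes are known targets of NF-κB and of C/EBP factors, downstream of interleukin-1, interleukin-17 and interleukin-22.

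RefSeq start windows were available for 3 of the 5 genes with a value, Reg3g, Lcn2 and Pigr, and the 250 bases before each start are shown because they set a gene without a difference (Lcn2) beside genes with large ones. The window of Reg3b, a neighbour of Reg3g in the gene order, is added because both lectin genes differed between the groups in the same direction. It was chosen after its values were seen. All windows are from the rat assembly GRCr8 and are written in the direction of transcription. Capitals mark matches to the NF-κB consensus, to TTNCNNAA (a core of the C/EBP site), to TTCNNNGAA (the STAT site) or to TATAAA (the TATA box), each searched on both strands.
Reg3g, chr4:112484739-112484988, minus strand: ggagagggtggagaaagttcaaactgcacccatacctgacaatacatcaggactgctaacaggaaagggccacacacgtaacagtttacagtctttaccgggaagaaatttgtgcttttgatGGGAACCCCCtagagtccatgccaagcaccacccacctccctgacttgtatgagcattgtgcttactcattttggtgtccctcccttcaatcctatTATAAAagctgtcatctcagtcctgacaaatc
Reg3b, chr4:112419526-112419775, plus strand: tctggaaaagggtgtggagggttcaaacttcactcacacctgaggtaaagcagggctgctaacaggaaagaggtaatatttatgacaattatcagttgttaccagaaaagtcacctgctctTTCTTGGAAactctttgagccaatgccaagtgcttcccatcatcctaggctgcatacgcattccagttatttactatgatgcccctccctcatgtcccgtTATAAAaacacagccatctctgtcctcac
Lcn2, chr3:36081781-36082030, minus strand: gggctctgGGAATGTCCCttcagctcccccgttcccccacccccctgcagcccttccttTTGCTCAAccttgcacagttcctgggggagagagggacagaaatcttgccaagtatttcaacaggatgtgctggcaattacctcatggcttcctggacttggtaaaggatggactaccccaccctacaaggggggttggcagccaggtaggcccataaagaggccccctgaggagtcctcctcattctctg
Pigr, chr13:44850932-44851181, plus strand: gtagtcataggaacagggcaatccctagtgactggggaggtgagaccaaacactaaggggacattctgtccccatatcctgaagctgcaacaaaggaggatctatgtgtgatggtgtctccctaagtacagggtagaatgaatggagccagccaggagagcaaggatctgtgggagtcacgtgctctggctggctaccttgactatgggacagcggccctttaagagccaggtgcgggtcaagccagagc

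Counted from the start, the Reg3g window held an NF-κB match from −128 to −119, which reads as a match on both strands, and TATAAA from −32 to −27. The Reg3b window held a STAT match from −129 to −121 and TATAAA from −29 to −24. The Lcn2 window held an NF-κB match on the minus strand from −242 to −233 and a C/EBP match from −191 to −184. No overlap between the matches of different motifs was found, and in the Pigr window these letters were not found. Among all 33469 windows of RefSeq, the 250 bases before the start held the NF-κB consensus in 6.33%, TTNCNNAA in 37.2%, TTCNNNGAA in 7.67% and TATAAA in 12.9%. A match of this kind is a property of the letters and was not linked to binding. The Reg3g and Reg3b windows were identical at 172 of 263 aligned columns (65.4%), beside 48.0% for Reg3g and Lcn2, 50.3% for Reg3g and Pigr and 45.6% for Lcn2 and Pigr.

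Defb4 (NCBI Gene 64389), a beta-defensin of airway epithelium, went from a low level in sham rats to a level below that of Lcn2 alone among the 5 genes in BPVB rats. Its FPKM was 16.1, 14.2 and 19.0 in BPVB rats and 0.799, 1.32 and 1.20 in sham rats. The groups lay far apart, and no library came near the other group. The mean was 16.4 ± 2.4 FPKM in BPVB rats and 1.10 ± 0.27 in sham rats (SD, n = 3 in each), a ratio of 14.9 between the means. On log2(FPKM + 0.5), the scale of all fold changes below, the difference was 3.41 (standard error 0.15), and 4 of the 15150 tested genes had a larger one. This scale lowers the fold of genes with little expression. The values rested on 181, 156 and 238 fragments in BPVB rats and on 8, 13 and 12 in sham rats, so that the sham level was known with little precision. By mean FPKM, Defb4 stood at percentile 21.9 of the tested genes in the sham group and at percentile 72.7 in the BPVB group.

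Reg3g (NCBI Gene 24620), a bactericidal C-type lectin, had the lowest level of the 5 genes in both groups. Its FPKM was 2.35, 2.60 and 2.99 in BPVB rats. In the sham libraries it was 0.335, 0.0399 and 0, from 17, 2 and 0 fragments. The groups did not overlap, but sham replicate 1 held most of the sham fragments. The count of 0 in sham replicate 3 allows up to 3 fragments, or 0.059 FPKM, a limit that covers counting error only. The mean was 2.65 ± 0.32 FPKM in BPVB rats and 0.125 ± 0.18 in sham rats (SD, n = 3 in each). The log2 fold change was 2.37 (standard error 0.20). It depended on the way low values were handled, from 1.71 with a pseudocount of 1 to 5.59 on the fragments (limma-voom), while each of these lay above 1. The ratio of the means was 21.2 and rested on sham replicate 1. Computed after the values were seen, the ratio without that library was 133, from 2 sham fragments, whose counting error alone allows 36.7 to 1095 (95% exact Poisson interval). It was 14.1 without sham replicate 3. Reg3g was below Defb4 in log2 fold change with pseudocounts of 0.5 and 1 and above it with a pseudocount of 0.1 and with limma-voom on the fragments (5.59 against 3.87).

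Pigr (NCBI Gene 25046), the receptor that exports polymeric immunoglobulin, varied least between BPVB rats. Its FPKM was 5.22, 5.46 and 4.97 in BPVB rats and 0.765, 0.744 and 0.454 in sham rats. No value of either group came near the other. The means were 5.22 ± 0.25 FPKM (SD, n = 3) and 0.654 ± 0.17 (SD, n = 3), a ratio of 7.97, and the log2 fold change was 2.32 (standard error 0.14). With 567, 580 and 601 fragments in BPVB rats and 74, 71 and 44 in sham rats, Pigr had in each group more fragments in sum than Defb4, Reg3g or Slpi.

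Slpi (NCBI Gene 84386), the inhibitor of neutrophil serine proteases, differed less and varied more. Its FPKM was 6.94, 9.34 and 12.9 in BPVB rats and 3.16, 2.22 and 4.31 in sham rats. All BPVB libraries were above all sham libraries, but the gap between BPVB replicate 1 and sham replicate 3 was smaller than the range within the BPVB group. The mean was 9.72 ± 3.0 FPKM in BPVB rats and 3.23 ± 1.0 in sham rats (SD, n = 3 in each), a ratio of 3.01. The log2 fold change was 1.45 (standard error 0.24). The SD of Slpi was 30.7% of the mean in the BPVB group, beside 14.7% for Defb4, 12.2% for Reg3g, 6.09% for Lcn2 and 4.76% for Pigr.

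Lcn2 (NCBI Gene 170496), the siderophore-binding lipocalin, was the exception. Its FPKM was 23.7, 25.8 and 23.0 in BPVB rats and 22.2, 25.4 and 25.5 in sham rats. The values of the groups were interleaved. The means were 24.1 ± 1.5 FPKM (SD, n = 3) and 24.3 ± 1.9 (SD, n = 3), and the log2 fold change was -0.01 (standard error 0.07), with a range of -0.07 to 0.02 over the alternatives. Lcn2 was counted with 461 to 597 fragments in each library, so that its depth was comparable to that of Pigr in the BPVB group. Lcn2 stood at percentile 80.3 of the tested genes in the BPVB group and 80.5 in the sham group.

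**Figure D1:**
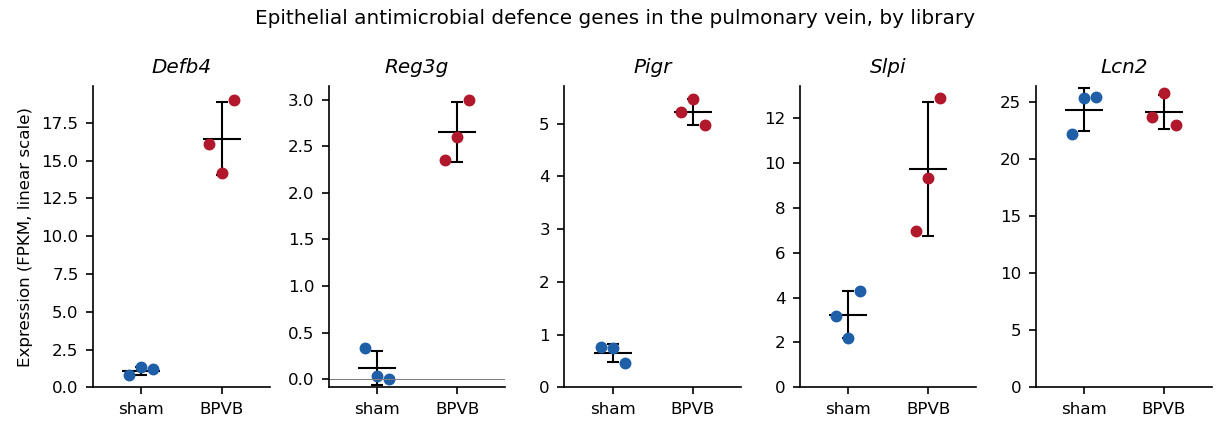
FPKM of Defb4, Reg3g, Pigr, Slpi and Lcn2 in each library (points) of the sham and BPVB groups, with the mean and SD of each group (black), each gene on its own linear axis. Defb4, Reg3g, Pigr and Slpi do not overlap between the groups, and Lcn2 lies between 22.2 and 25.8 FPKM in all 6 libraries.

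Per gene length, the order of the 5 genes differed between the groups. In the sham group the order of the FPKM was Lcn2, Slpi, Defb4, Pigr and Reg3g. In the BPVB group it was Lcn2, Defb4, Slpi, Pigr and Reg3g, with Defb4 now above Slpi. No pair of neighbours in either order overlapped over the 3 libraries of the group. The summed FPKM of the 5 genes was 54.3, 57.4 and 62.8 in BPVB rats and 27.2, 29.7 and 31.4 in sham rats. Lcn2 made up 82.6% of that sum in the sham group and 41.5% in the BPVB group, whereas Defb4 made up 3.75% and 28.3%. Without Lcn2 the sum was 30.6, 31.6 and 39.9 FPKM in BPVB rats and 5.05, 4.32 and 5.96 in sham rats.

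The libraries of a group did not rank alike across these genes. Defb4, Reg3g and Slpi were each highest in BPVB replicate 3, whereas Pigr and Lcn2 were lowest there. Among the sham libraries, replicate 1 had the highest Reg3g and Pigr and the lowest Defb4 and Lcn2. With 3 libraries per group, no relation between the genes within a group could be tested.

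By the thresholds for a differentially expressed gene (DEG), a limma p under 0.05 after Benjamini-Hochberg adjustment and a log2 fold change above 1, 4 of the 5 genes counted as up-regulated, beside 2.24% of all tested genes. The 3 BPVB values lay above the 3 sham values in the same 4 genes, beside 25.2% of all tested genes. Nothing is read from these counts, since the genes were chosen for this contrast. The median log2 fold change was 2.32 over the 5 genes and 0.02 over all tested genes, with the same reservation.

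**Figure D2:**
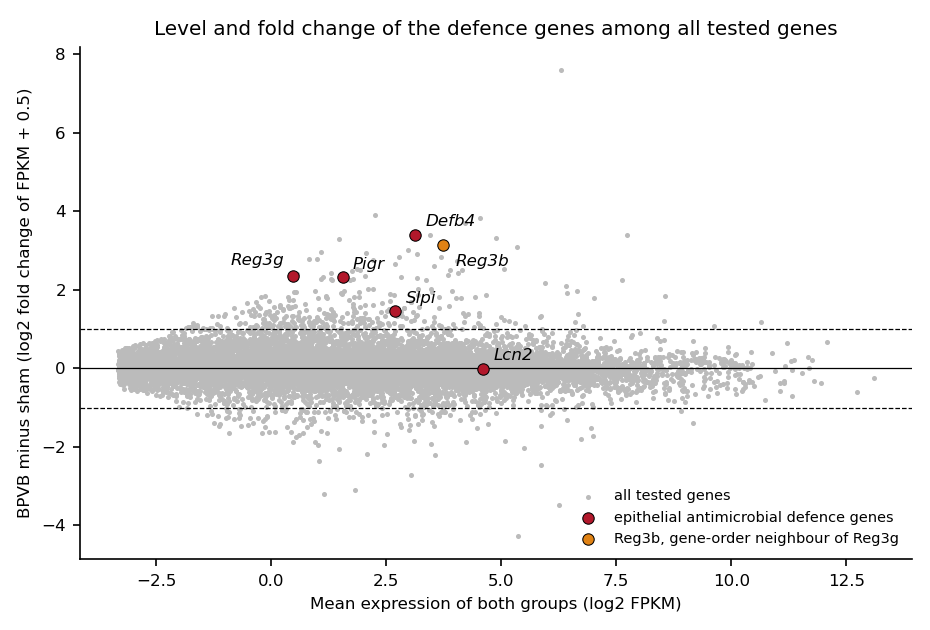
Mean FPKM of both groups (x axis, log2 scale) and the log2 fold change of FPKM + 0.5 between the BPVB and sham groups (y axis) of the 15150 tested genes (grey), the 5 defence genes (red) and Reg3b (orange), with dashed lines at a fold of 1 up and down on the log2 scale. Defb4 lies at 3.41, Reg3g at 2.37, Pigr at 2.32 and Slpi at 1.45, and Lcn2 lies on the line of no difference.

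Whether other genes of mucosal defence differed was read from lists of the same kinds of gene, tested in the same fit of all genes. Over the 83 tested genes of the defence lists, with the 5 genes above left out, 32 were higher in the BPVB group and 9 were lower at an adjusted p under 0.05. These shares, 38.6% and 10.8%, stand beside 17.2% higher and 14.3% lower among all tested genes. The median log2 fold change of the 83 genes was 0.17. Another 34 listed genes had a row but a mean under 0.1 FPKM and were not tested.

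The other secreted lectins were higher in 7 of 8 tested genes and lower in 0. Reg3b, a lectin of the same family as Reg3g, rose from 2.70, 1.97 and 2.27 FPKM in sham rats to 24.5, 24.3 and 23.7 in BPVB rats (log2 fold change 3.14, standard error 0.10, adjusted p = 9.5e-08, limma). Its level was thus close to that of Lcn2 in the BPVB group and below it in the sham group. The lung collectins rose with it. Sftpa1, which encodes surfactant protein A, had a log2 fold change of 3.09 (adjusted p = 2.3e-09, limma), and Sftpd, which encodes surfactant protein D, one of 2.84 (adjusted p = 2.8e-06, limma). Both are also markers of alveolar type 2 cells. Reg3a was listed at 0.245, 0.293 and 0.33 FPKM in BPVB rats and at 0 in each sham library, and its difference passed the test (adjusted p = 0.0065, limma). It reached the filter of 0.1 FPKM only through the BPVB group, so its call adds no support to the count of lectins.

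RefSeq order places Reg3b, Reg3a and Reg1a next to Reg3g. Reg1a passed the test too (adjusted p = 0.023, limma), at 0.196, 0.400 and 0.176 FPKM in BPVB rats and 0 in each sham library. The lowest possible numbers of its fragments in BPVB rats were 1, 2 and 1. The call was lost without any 1 of the sham libraries. On the other side of Reg3g, Lrrtm4 (log2 fold change -0.33, adjusted p = 0.24), LOC680224 (0.23, adjusted p = 0.72) and Gcfc2 (-0.05, adjusted p = 0.84) did not pass in limma. The 3 Reg genes beside Reg3g were thus called higher, and the next 3 genes on the other side were not called. Reg3a and Reg1a, however, reached the filter of 0.1 FPKM only through the BPVB group. Nothing is therefore read from the contrast of the sides. This order was examined after the values were known.

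The defensin genes beside Defb4 gave little signal. Of 44 other defensin and cathelicidin genes listed, 10 had a row and 4 were tested, with 0 higher and 1 lower. Without BPVB replicate 1, 1 gene was higher. The gene that fell was Camp, which encodes the cathelicidin of neutrophil granules, with 1.34 ± 0.51 FPKM in sham rats and 0.189 ± 0.073 in BPVB rats (SD, n = 3 in each, log2 fold change -1.39, adjusted p = 0.00086, limma). Defb28 held 0, 14 and 5 fragments (the lowest possible numbers) in BPVB rats and 0 in each sham library, and did not pass (adjusted p = 0.12, limma). The 6 untested genes of the list never exceeded 0.521 FPKM in a library, among them Defb5, the nearest neighbour of Defb4 with a value. Only the lowest possible number of their fragments is known, at most 1 in a library.

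Genes that bind lipopolysaccharide were higher in 3 of 4 tested genes. They were Cd14, the co-receptor (log2 fold change 0.58, adjusted p = 0.00051), Lbp, which delivers lipopolysaccharide to it (0.51, adjusted p = 7.3e-05), and Ly96, the partner of TLR4 (0.39, adjusted p = 0.038), all by limma. Ly96 lost its call in 6 of 16 alternatives, among them the omission of any 1 BPVB library or of sham replicate 1. The BPI-fold genes of this list with a row, Bpi, Bpifa6, Bpifb3, Bpifb4 and Bpifb5, never exceeded 0.122 FPKM in a library and were not tested.

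The genes that withhold iron and other metals split. Among 11 tested genes, 5 were higher and 3 were lower. Cp (ceruloplasmin) rose with a log2 fold change of 1.31 (adjusted p = 3.8e-07), Slc11a1, a metal exporter of the macrophage phagosome, with 1.06 (adjusted p = 0.00094), and Tf (transferrin) with 0.88 (adjusted p = 7.1e-07, limma). In contrast, both subunits of calprotectin, a zinc and manganese chelator of neutrophils, fell. The log2 fold change was -1.45 for S100a8 (adjusted p = 0.0021) and -1.20 for S100a9 (adjusted p = 6.4e-05, limma).

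Among the other antiproteases, 8 of 11 tested genes were higher and 1 was lower. This lower call was lost in 7 of 16 alternatives, among them TPM and the omission of BPVB replicate 1 or 3 or sham replicate 1 or 3. The largest rises were those of Serpinb1a, an inhibitor of neutrophil proteases (log2 fold change 1.22, adjusted p = 0.00032), Timp1, an inhibitor of metalloproteinases (0.79, adjusted p = 1.2e-05), Serpina3n (0.79, adjusted p = 0.0039) and Serpina1, which encodes alpha-1-antitrypsin (0.64, adjusted p = 0.014, limma). These stand beside the log2 fold change of 1.45 of Slpi. Wfdc2, which like Slpi carries WAP domains, had 6.32, 3.91 and 6.01 FPKM in BPVB rats and 2.89, 3.28 and 4.24 in sham rats, with overlap between the groups (log2 fold change 0.56, adjusted p = 0.046, limma). This call was lost in 8 of 16 alternatives, among them the omission of BPVB replicate 1 or 3 or of sham replicate 1 or 2.

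Secreted enzymes were higher in 3 and lower in 3 of 14 tested genes. The lower count was 1 without BPVB replicate 2, BPVB replicate 3, sham replicate 1 or sham replicate 2, and the higher count was 5 with limma-voom. The lysozyme genes Lyz2 and Lyc2 rose by 1.85 (adjusted p = 1.4e-09) and 2.41 (adjusted p = 3.1e-06, limma) on the log2 scale. They are close copies, so that the counting could have split their fragments. Chi3l1, a chitinase-like protein, rose by 1.29 (adjusted p = 4.8e-05), and Pla2g5, a secreted phospholipase, fell by 0.64 (adjusted p = 0.00059, limma). Among 13 tested receptors of microbial products, 3 were higher and 0 lower. They were Clec7a, which binds fungal glucans (log2 fold change 1.40, adjusted p = 0.00011), Tlr1 (0.79, adjusted p = 0.009) and the adaptor Myd88 (0.36, adjusted p = 0.0011, limma).

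Among mucin, trefoil and secretoglobin genes, 2 of 7 tested genes were higher and 1 was lower (2 lower without BPVB replicate 1). Scgb1a1, the secretoglobin of club cells, rose by 2.52 (adjusted p = 1.6e-06), Muc1, a membrane mucin, by 1.82 (adjusted p = 6.6e-05), and Muc13 fell by 0.68 (adjusted p = 0.009, limma) on the log2 scale. The gel-forming mucins were almost absent. Muc5b was above 0 in BPVB replicate 2 only, and Muc5ac in BPVB replicate 3 and sham replicate 1 only. Neither exceeded 0.129 FPKM in a library.

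The partners of the 5 genes were examined by the same fit, and 3 of 8 tested partners were higher and 1 was lower. For Pigr, the cargo was read from genes of antibody-making cells, of which 1 of 11 tested was higher and 0 were lower (1 lower without BPVB replicate 2 or 3 or with median of ratios). That gene was Mzb1, a chaperone of plasma cells, with 1.58, 1.27 and 1.96 FPKM in BPVB rats and 0.863, 0.195 and 0.909 in sham rats (log2 fold change 0.92, adjusted p = 0.03, limma). It lost its call in 5 of 16 alternatives, among them the omission of BPVB replicate 1 or 3. Jchain, the joining chain that Pigr binds, was not analysed here.

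For Slpi, serine proteases of neutrophil granules were close to 0. Elane and Ctsg encode the elastase and cathepsin G that it inhibits. Elane had 0.186 FPKM in sham replicate 1, Ctsg had 0.0249 FPKM in the same library, Prtn3 had 0.0273 FPKM in sham replicate 2, and all others were listed at 0. Plscr1, a membrane protein that Slpi binds, rose by 0.57 on the log2 scale (adjusted p = 0.0025), and Anxa2, another binding partner, did not pass (0.03, adjusted p = 0.43, limma). Mmp12, the metalloelastase of macrophages, which is not a serine protease like the enzymes that Slpi inhibits, rose from 0.047, 0.191 and 0 FPKM in sham rats to 3.33, 3.21 and 3.87 in BPVB rats (log2 fold change 2.79, adjusted p = 2.7e-06, limma).

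For Lcn2, the receptor gene Slc22a17 was slightly lower in the BPVB group (log2 fold change -0.21, adjusted p = 0.043, limma), a call that was lost in 8 of 16 alternatives, among them the omission of any BPVB library, sham replicate 2 or sham replicate 3. Lrp2 (megalin), which also takes up lipocalin-2, was under the filter, with 0.201, 0.127 and 0.174 FPKM in BPVB rats and 0.0435, 0.0166 and 0.0326 in sham rats. For Reg3g, the receptor gene Extl3 did not pass (log2 fold change 0.17, adjusted p = 0.098, limma). For Defb4, the receptor Ccr6 was under the filter, and its chemokine ligand Ccl20 did not pass (0.31, adjusted p = 0.36, limma).

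The signals and factors that are known to control such genes were tested next. Over all 60 tested genes of the signal lists, partners included, 26 were higher (43.3%, beside 17.2% of all tested genes) and 5 lower (8.33%, beside 14.3%), and their median log2 fold change was 0.26. Of the inducing cytokines, 2 of 9 tested genes were higher and 1 was lower. Il17b rose by 0.52 (adjusted p = 0.0089), Il33 fell by 0.31 (adjusted p = 0.0013), and Il6 rose by 0.61 (adjusted p = 0.035, limma) on the log2 scale. Il6 rested on 5 to 18 fragments per BPVB library and 1 or 2 per sham library, and lost its call when BPVB replicate 1 or 3 or any sham library was left out. With limma-voom on the fragments, neither Il6 nor Il17b passed (adjusted p = 0.096 for Il17b), and 0 genes of the list were higher. Il1b (-0.28, adjusted p = 0.12) and Tnf (-0.17, adjusted p = 0.39) did not pass (limma), and Il17f was above 0 in 1 library only, at no more than 0.216 FPKM.

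Receptors for these cytokines were higher in 8 of 18 tested genes and lower in 1. The 8 became 4 without BPVB replicate 1, BPVB replicate 3 or sham replicate 3 and 5 without sham replicate 2, with median of ratios, with quantile normalization or with the replicate block. Il17ra, the shared receptor chain of interleukin-17, had 8.01, 8.07 and 9.03 FPKM in BPVB rats and 4.55, 4.35 and 4.05 in sham rats (log2 fold change 0.88, adjusted p = 7.4e-05, limma). Its partner chain Il17rc did not pass (0.26, adjusted p = 0.25, limma). Il22ra1, the chain of the interleukin-22 receptor found on epithelium, had no more than 0.151 FPKM in sham replicate 1 and 0 elsewhere.

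Among 25 tested transcription factors and regulators, 13 were higher and 2 were lower. Nkx2-1, a factor of lung epithelium, rose by 1.46 (adjusted p = 0.0011), Cebpa by 1.29 (adjusted p = 0.00011), Cebpb by 0.83 (adjusted p = 7.9e-05) and Cebpd by 0.81 (adjusted p = 0.00012, limma) on the log2 scale. Genes of the NF-κB pathway were named after their values were seen, and Nfkbiz among them fell (below). Relb rose by 0.66 (adjusted p = 0.0064), Nfkbia by 0.45 (adjusted p = 2.8e-05), Nfkb2 by 0.39 (adjusted p = 0.0043) and Nfkb1 by 0.25 (adjusted p = 0.0099, limma). Both genes that fell are feedback or co-factors of these pathways. Socs3, the inhibitor of STAT3 signalling, had a log2 fold change of -1.18 (adjusted p = 3.2e-06), and Nfkbiz, which encodes IκB-ζ, a known co-activator of Lcn2 and Defb4, one of -0.56 (adjusted p = 0.0087, limma).

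**Figure D3:**
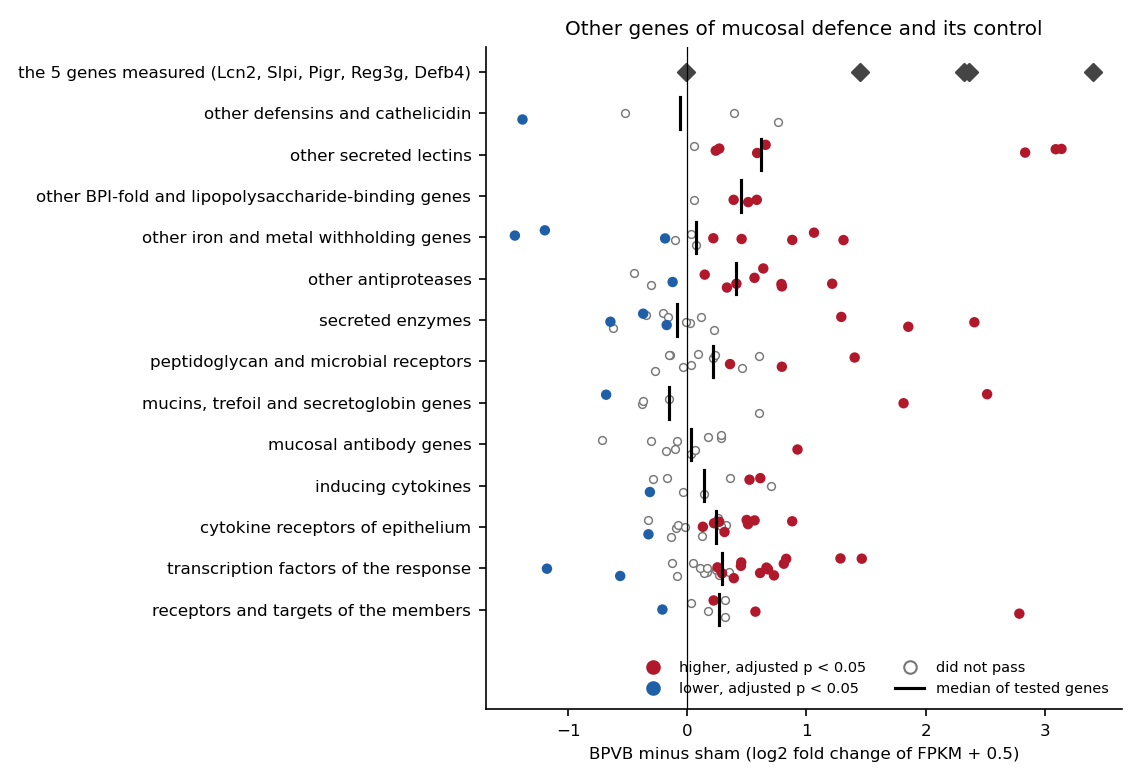
Log2 fold change of FPKM + 0.5 between the BPVB and sham groups (x axis) of each tested gene in the lists of other defence and signal genes (rows), coloured where the adjusted p was under 0.05, with the median of each list (black bar) and the 5 described genes in the top row (diamonds). The lectins reach 3.14 and the enzymes 2.41, while the list of other defensins has a median of -0.06 and calprotectin lies below -1.

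The cells that could hold these transcripts were read from marker lists. Each of the 16 broad epithelial markers had a row, and 9 of the 13 tested were higher and 0 lower. Their summed FPKM was 24.0 to 28.0 in BPVB rats and 5.56 to 7.23 in sham rats, a ratio of 4.10 between the means. Epcam, the epithelial adhesion molecule, had 5.26, 5.10 and 3.18 FPKM in BPVB rats and 0.605, 0.497 and 0.201 in sham rats. The label of epithelial genes thus met broad epithelial markers whose sum was small in both groups and higher in BPVB rats, with Cldn4 and Elf3 at 0 in all sham libraries. Alveolar markers, which are also epithelial, had larger sums (below). Within the BPVB group the broad epithelial sum was lowest in replicate 3, where Pigr and Lcn2 were also lowest and Defb4, Reg3g and Slpi were highest. The alveolar type 2 sum was instead lowest in replicate 1, with 703, 757 and 735 FPKM in replicates 1, 2 and 3. Nothing is read from these orders, since no relation within a group could be tested.

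Among types of epithelium, the alveolar type 2 markers moved most. In this list 10 of 12 tested genes were higher and 0 lower, and the sum was 703 to 757 FPKM in BPVB rats and 203 to 209 in sham rats, a ratio of 3.56. Sftpc, the surfactant protein that defines these cells, had a log2 fold change of 3.40 (adjusted p = 8.6e-10, limma). The alveolar type 1 list was higher in 9 and lower in 2 of 12 genes, and its sum was 759 to 789 against 707 to 718 FPKM, most of it from Cav1, which endothelium also expresses. These ratios stand beside 14.9 for Defb4, 7.97 for Pigr, 3.01 for Slpi and 0.992 for Lcn2, while that of Reg3g, 21.2, moved between 14.1 and 133 with the omission of 1 library. A ratio of sums is not the fold of a single gene, and the type 2 genes differed widely. Their log2 fold change ran from 0.06 to 3.40, with a median of 2.44. It was 3.41 for Defb4, 2.32 for Pigr and 1.45 for Slpi.

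Airway epithelium gave a mixed reading. The club and secretory list was higher in 3 and lower in 1 of 6 tested genes, with a sum of 348 to 352 FPKM in BPVB rats and 161 to 163 in sham rats, most of it from Nupr1 and Chad, which are not restricted to club cells. Scgb3a1, Scgb3a2 and Cckar were at 0 in all BPVB libraries, and Cyp2f4 was at 0 in all sham libraries. None of these genes exceeded 0.254 FPKM in any library of the other group. The goblet and gland list was higher in 1 and lower in 0 of 6 tested genes (1 lower without sham replicate 3), with a sum of 10.7 to 13.9 FPKM against 9.08 to 10.7, and Pip was at 0 in all BPVB libraries and Muc5b, Spdef, Tff1 and Tff2 in all sham libraries. The higher gene, Creb3l1, lost its call in 4 of 16 alternatives, the omission of BPVB replicate 1 or 2 or of sham replicate 2 or 3. The ciliated list was higher in 0 and lower in 1 of 7 tested genes (2 without BPVB replicate 3), with a sum of 82.6 to 91.6 FPKM against 133 to 142 that came mostly from Tppp3. Foxj1, the factor that defines ciliated cells, was at 0 in all BPVB libraries and did not exceed 0.174 FPKM in any sham library. The basal list was higher in 1 and lower in 0 of 2 tested genes, with a sum of 2.93 to 3.47 FPKM against 2.52 to 3.10. Krt5, Krt14, Tp63 and Dsc3 were at 0 in all BPVB libraries, and none of them exceeded 0.0818 FPKM in any sham library. The higher gene, Ngfr, lost its call in 8 of 16 alternatives, among them the omission of any BPVB library or of sham replicate 2 or 3.

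Slpi and Lcn2 are also expressed by neutrophils and macrophages, and Camp by neutrophils. The neutrophil list was higher in 2 (1 without BPVB replicate 2, BPVB replicate 3 or sham replicate 3) and lower in 5 of 12 tested genes, and its sum was lower in BPVB rats (13.5 to 15.9 FPKM) than in sham rats (25.3 to 28.3). Elane, Ctsg and Prtn3 were at 0 in all BPVB libraries. The macrophage list was higher in 9 and lower in 0 of 12 tested genes, with a sum of 2013 to 2060 against 1555 to 1570 FPKM. The mast cell list was higher in 5 and lower in 1 of 10 tested genes, with a sum of 41.0 to 44.4 against 33.3 to 34.9 FPKM.

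The mesothelial list was higher in 1 and lower in 4 of 6 tested genes, with sums of 8.01 to 10.3 FPKM in BPVB rats and 9.84 to 12.4 in sham rats. Markers of the vein wall and its muscle sleeve, at 11624 to 11790 against 13624 to 13718 FPKM, were present in all libraries, with 5 higher and 10 lower of 16 tested genes. For no list could the exact permutation test of the sums go below p = 0.1, the smallest that 3 rats against 3 allow, and the sums of all lists but the basal and mesothelial ones reached it (adjusted p = 0.12 over the 12 lists). The part of these cells in the difference of Defb4, Reg3g, Pigr and Slpi was not tested.

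**Figure D4:**
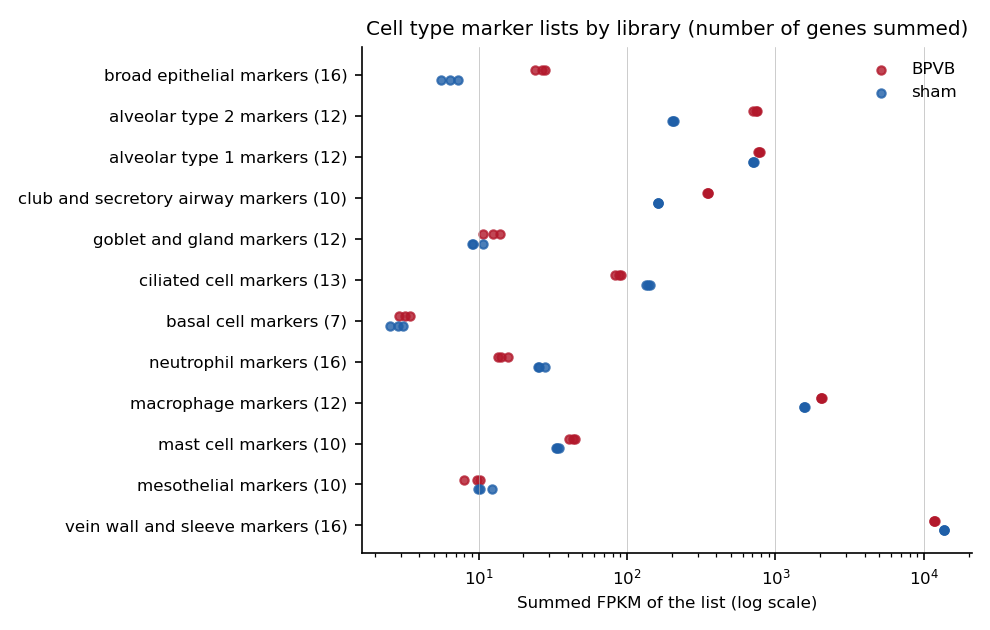
Summed FPKM (x axis, log scale) of 12 cell type marker lists (rows, with the number of genes summed) in each BPVB (red) and sham (blue) library. The broad epithelial and alveolar type 2 sums are higher in all BPVB libraries, the neutrophil and ciliated sums are lower, and the mesothelial sums overlap.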

How the data were processed

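The authors mapped reads with HISAT, counted them per gene and deposited 1 FPKM value per gene and library. The paper names HTSeq-count for the counting, whereas the submitters' processing notes list HISAT2 2.0.5, StringTie 1.3.3b, featureCounts 1.5.0-p3 and DESeq2 1.20.0. The genome build, annotation and strand setting are not given in the sources used here. Since counting may have ignored strand, fragments of overlapping genes may have been assigned to either. The paper names a VAHTS kit for the libraries and the labels a NEBNext Ultra kit.

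From the FPKM, whole fragments were recovered from the ratios of a gene's values between libraries. Where a gene had few fragments, only their lowest possible number is known. Groups were taken from the sample labels and compared on log2(FPKM + 0.5) with limma 3.58.1 in R 4.3.3 (eBayes with trend, two-sided, Benjamini-Hochberg adjustment over 15150 genes, those whose mean reached 0.1 FPKM). DESeq2, the authors' tool, was not run. The p-values measure the spread between these rats. No 2 libraries were copies of each other. Scripts were tested on simulated data. Marker sums were compared by exact permutation tests. Promoter windows came from RefSeq (GRCr8), and 17649 of the gene numbers matched the RefSeq gene table. Other steps used matplotlib 3.10.9, pandas 2.3.3, scipy 1.17.1 and numpy 2.4.6 in Python 3.11.15.

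The defence genes and the 25 gene lists were chosen with earlier results of these data known, so no list is independent evidence. Named are all 10 defence genes, up to 4 genes per list with the largest change among those with an adjusted p under 0.05, markers at 0 in a group, and partners of the 5 genes. Reg3b, Reg1a and the other gene-order neighbours, and Ltf, Tf, Defb28, Wfdc2, Il1b, Tnf, Il17f, Il17rc, Il22ra1, Cebpd, Relb, Nfkbia, Nfkb2, Nfkb1, Nfkbiz, Muc5ac, Cav1, Bpif genes and untested partners, were named after their values were seen. The alternatives were 2 other pseudocounts, 2 other filters, 3 other scalings, a block for the replicate number, eBayes in its robust form, limma-voom on fragments and the omission of each library.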

Additional observations from a re-analysis of the deposited data

How the results depend on the processing

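Over 16 alternatives, the counts of genes higher (2605) and lower (2170) in the BPVB group, and of genes called in the defence lists pooled and the signal lists pooled, moved by less than 1.5 times, except that 5 in place of 9 defence list genes were lower without sham replicate 1. Single lists were less stable, and 20 of their 50 counts moved by over 1.5 times, or to or from 0, in at least 1 alternative. With any 1 library omitted, 2166 to 2232 genes were higher and 1751 to 1905 lower, with 28 to 30 defence list genes higher and 5 to 8 lower. The log2 fold change, given as a description, of Defb4 ranged from 3.05 to 3.87, Reg3g from 1.71 to 5.59, Pigr from 1.91 to 3.02 and Slpi from 1.24 to 1.66. The scaling split calls into 2362 higher and 2454 lower with median of ratios and 3000 and 1888 with TPM. Rats with the same number did not deviate together (r = 0.025, 0.014 and 0.015 across genes), and with the replicate number as a block (replicate block) 2466 genes were higher and 2073 lower. Of 76 list genes called and chosen by the naming rule, 66 held their call in all alternatives and 10 lost it in at least 1, with 0 changes of sign. Fragment counts limit Reg3g and Defb4 most, at 19 and 33 fragments in the sham group.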

Other observations

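The gene-order neighbours of the 5 defence genes were looked at after the values were known, with 3 protein-coding genes on either side of each gene in RefSeq. Of 30 such places, 20 had a value and 18 were tested, of which 7 were higher and 1 was lower in the BPVB group (limma, adjusted p under 0.05), beside 17.2% and 14.3% of all tested genes. The 3 Reg genes next to Reg3g are among the 7. Of the 7, Reg3a, Reg1a and LOC498222 had sham means under 0.1 FPKM and reached that filter only through the BPVB group. Near Pigr, LOC498222, listed by RefSeq as C13h1orf116, rose from 0.0644 ± 0.10 FPKM (SD, n = 3) to 0.923 ± 0.17 (adjusted p = 0.00046, limma), whereas Fcmr, the IgM receptor gene on the other side of Pigr, had a log2 fold change of -0.30 and did not pass (adjusted p = 0.26, limma). Near Slpi, Sdc4, which encodes the heparan sulfate proteoglycan syndecan-4, rose from 6.19 ± 0.25 to 10.8 ± 0.36 FPKM (SD, n = 3, adjusted p = 5.3e-05, limma) and Rbpjl from 0.477 ± 0.039 to 1.02 ± 0.36 (adjusted p = 0.038, limma), a call lost without BPVB replicate 1 or 2 or any 1 sham library. Around Lcn2, which did not differ, Bbln (listed as RGD1561113) had a log2 fold change of 0.25 (adjusted p = 0.0091), a call lost with limma-voom on the fragments (adjusted p = 0.24), and Dnm1 one of -0.38 (adjusted p = 0.033, limma), which was lost without BPVB replicate 1 or 2 or sham replicate 2 or 3, and the other 4 did not pass.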
